A study of Mus musculus with 6 samples.

Results

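The genes followed here are 10 genes of the Hippo pathway and of its effectors YAP and TAZ: *Yap1*, *Wwtr1*, *Tead1*, *Lats2*, *Amotl2*, *Ajuba*, *Ctgf*, *Cyr61*, *Ankrd1* and *Axl*. They were selected by symbol from the 21297 genes measured in mouse liver, and all 10 were found. The choice was made with the fold changes of these same livers known, so the comparison of each gene between the groups is given as a description, with no test. Liver RNA came from male C57BL/6J mice on a chow diet that were 8 weeks old at the start. The animals received weekly intraperitoneal injections of 50 mg/kg MMAB ASO (n = 3) or 50 mg/kg CON ASO (n = 3) for 6 weeks and were killed 48 h after the last dose. An antisense oligonucleotide (ASO) pairs with an mRNA and lowers its level, here that of *Mmab*, and every mouse carried an oligonucleotide, since no untreated group was included. Both groups hold replicates 1, 2 and 4. The question put to the data is how the genes of this pathway stood in livers with less *Mmab* mRNA.

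The Hippo pathway is a kinase cascade in which the MST kinases activate LATS1 and LATS2. The LATS kinases phosphorylate YAP (encoded by *Yap1*) and TAZ (encoded by *Wwtr1*) and so hold them outside the nucleus. When they enter the nucleus, both coactivators bind TEAD transcription factors on DNA and raise genes such as *Ctgf*, *Cyr61* and *Ankrd1*, and several brakes of the pathway, *Lats2* and *Amotl2* among them, are targets as well. In liver the pathway is known for its control of organ size, bile duct fate and regeneration.

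TEAD factors read the letters CATTCC, or GGAATG on the other strand, and the promoter sequences show where these letters stand in the selected genes. RefSeq promoter windows of GRCm38.p6, from 250 bases before the transcription start to 50 bases after it, were matched for 8 of the 10 genes, with no entry for *Ctgf* and *Tead1*. Upstream sequence of *Cyr61* and *Ajuba* is shown because both genes stood lower in MMAB ASO livers, and *Ajuba* has a pair of matches. Both genes lie on the minus strand, *Cyr61* at chr3:145649986-145650235 and *Ajuba* at chr14:54577662-54577911, each stretch ending at the base before the start. Sequences are given 5′ to 3′ on the strand of the gene, and capitals mark the TEAD letters.
Cyr61: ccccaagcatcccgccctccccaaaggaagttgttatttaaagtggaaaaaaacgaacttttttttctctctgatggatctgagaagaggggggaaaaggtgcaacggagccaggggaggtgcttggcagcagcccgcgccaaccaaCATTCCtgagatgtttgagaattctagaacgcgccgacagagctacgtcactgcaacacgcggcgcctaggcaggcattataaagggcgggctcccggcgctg
Ajuba: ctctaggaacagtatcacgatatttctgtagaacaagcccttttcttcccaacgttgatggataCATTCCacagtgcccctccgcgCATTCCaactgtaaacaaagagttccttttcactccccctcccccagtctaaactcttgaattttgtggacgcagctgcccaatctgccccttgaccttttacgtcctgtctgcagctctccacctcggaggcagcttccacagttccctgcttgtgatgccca

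For the other 6 genes, 40 bases around each match are shown, again with the TEAD letters in capitals, so that their different neighbours can be compared. All stretches are on GRCm38.p6, and all but that of *Amotl2* are on the minus strand. They lie at chr9:8004715-8004754 (*Yap1*), chr3:57576024-57576063 (*Wwtr1*), chr14:57746097-57746136 (*Lats2*), chr9:102717722-102717761 (*Amotl2*), chr19:36120032-36120071 and chr19:36119945-36119984 (*Ankrd1*), and chr7:25788944-25788983 (*Axl*).
Yap1: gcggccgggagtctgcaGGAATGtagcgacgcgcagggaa
Wwtr1: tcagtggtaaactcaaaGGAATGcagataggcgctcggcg
Lats2: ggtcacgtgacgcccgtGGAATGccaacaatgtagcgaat
Amotl2: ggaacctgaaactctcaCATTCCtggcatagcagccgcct
Ankrd1, first match: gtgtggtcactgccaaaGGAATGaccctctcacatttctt
Ankrd1, second match: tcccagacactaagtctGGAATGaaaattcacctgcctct
Axl: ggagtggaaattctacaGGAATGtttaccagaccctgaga

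Each of the 8 genes held the TEAD letters in a promoter window, searched on both strands. Of all 32851 windows of the genome 14.7% held them, and of the 10629 windows of genes that were tested for expression 12.0% did. *Ajuba* and *Ankrd1* had 2 matches each, and 1.07% of windows of the tested genes had 2 or more. The first letter of the match was between 233 bases before the start (*Axl*) and 65 bases before it (*Amotl2*) in 7 genes. In *Lats2* it was 4 bases after the start, and a second *Lats2* window, at another start, held none. With the longer letters ACATTCC, found in 3.85% of all windows and 2.94% of those of tested genes, 5 of the 8 genes matched, namely *Cyr61*, *Ajuba*, *Amotl2*, *Yap1* and *Axl*. The AP-1 letters TGANTCA, found in 7.81% of all windows, were in no window of these genes. The SMAD letters CAGAC were in 6 of the 8 genes and in 49.6% of all windows, and in *Ankrd1* a SMAD match overlaps the second TEAD match by 1 base. The E-box letters CACGTG, unrelated to TEAD, were in *Yap1* and *Lats2* and in 7.15% of all windows. These matches are letters and not measured binding sites, and they occur both in genes that stood higher in MMAB ASO livers and in genes that stood lower.

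**Figure D1:**
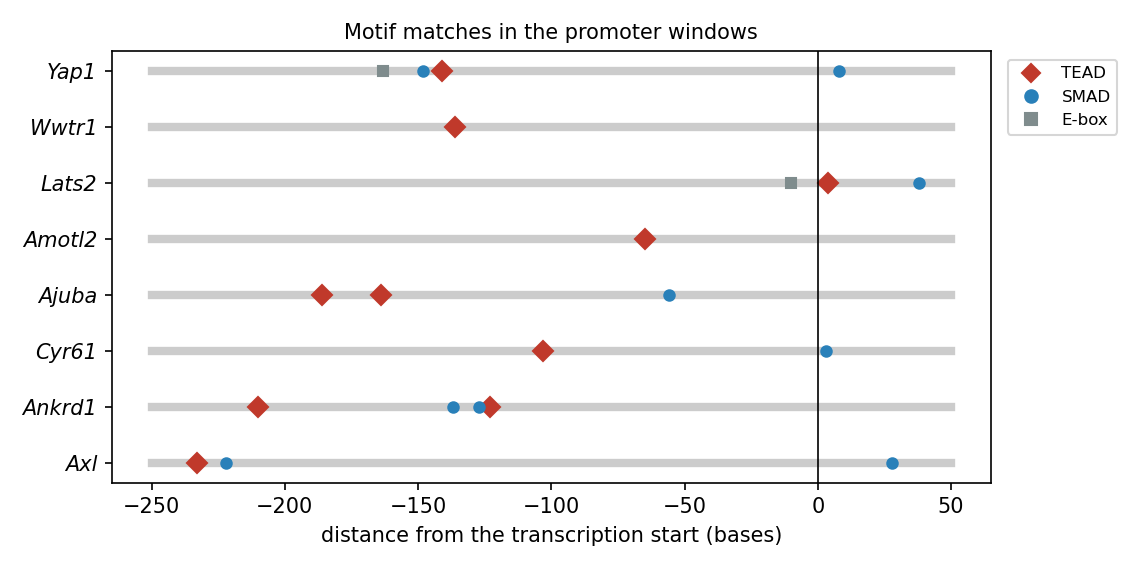
Positions of motif matches in the first promoter window of 8 genes, with a bar for each gene. The horizontal axis gives the distance of the first letter from the transcription start in bases. Second windows of *Wwtr1* and *Lats2*, that of *Lats2* without TEAD letters, are not drawn. Diamonds are TEAD letters, circles SMAD letters and squares E-box letters; every gene has a diamond, and that of *Lats2* is the only one after the start.

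Values are CPM, counts that the authors scaled to a common library total, and depth was estimated at 44.7 to 55.4 M reads per library. At this depth 1 read is worth 0.0181 to 0.0224 CPM. *Mmab* stood at 1.87, 2.69 and 1.80 CPM in MMAB ASO livers, against 6.31, 5.30 and 6.83 CPM in CON ASO livers, so each MMAB ASO liver lay below each CON ASO liver. CON ASO replicate 1 stood apart. Protein-coding genes took 57.0% of its total, against 46.2% to 51.1% elsewhere, and the macrophage gene *Marco* was at 15.7 CPM there, against 0.134 to 0.813 CPM in the other 5 livers. MMAB ASO replicate 2 and CON ASO replicate 1 were the highest of their groups for 52.9% and 62.1% of the 11565 genes tested, those that averaged 1 CPM or more over the libraries. Of the 10 selected genes, 9 passed this filter, all but *Ankrd1*.

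**Figure D2:**
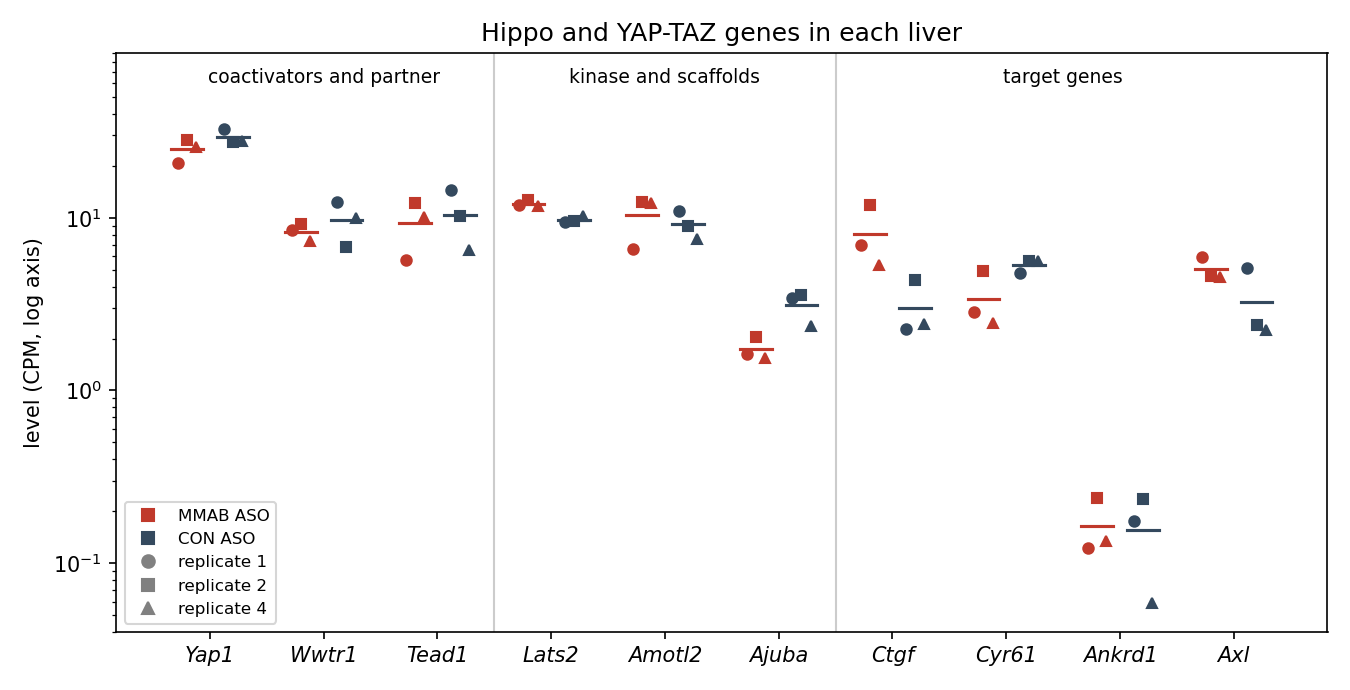
Level of the 10 selected genes in each liver, in CPM on a log axis, with MMAB ASO livers in red on the left and CON ASO livers in dark blue on the right of each gene. Symbols mark replicates 1, 2 and 4 and lines are group means (n = 3); the groups are apart for *Ctgf*, *Lats2* and *Ajuba*, and overlap for the other 7 genes.

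The coactivators and their DNA-binding partner overlapped between the groups. *Yap1*, on chromosome 9 from 7931999 to 8004596 of GRCm38, was at 20.8, 28.3 and 25.8 CPM in MMAB ASO replicates 1, 2 and 4, against 32.7, 27.6 and 27.8 CPM in CON ASO replicates 1, 2 and 4. MMAB ASO replicate 2 lay above a pair of CON ASO livers, and the log2 fold change was -0.24 (standard error 0.14). *Wwtr1* was at 8.46, 9.19 and 7.32 CPM in MMAB ASO livers and at 12.3, 6.80 and 9.98 CPM in CON ASO livers, a log2 fold change of -0.19 (standard error 0.20). The CON ASO group held both the highest and the lowest *Wwtr1* value, and without CON ASO replicate 1 the log2 fold change was 0.01. The CPM ratio of *Wwtr1* to *Yap1* was 0.407, 0.325 and 0.284 in MMAB ASO livers and 0.378, 0.247 and 0.359 in CON ASO livers, so the balance of both coactivators also overlapped.

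*Tead1*, which encodes a factor that carries YAP and TAZ to DNA, varied more within the groups than between them. It was at 5.73, 12.2 and 10.1 CPM in MMAB ASO livers and at 14.5, 10.3 and 6.50 CPM in CON ASO livers. The lowest liver was MMAB ASO replicate 1 and the highest CON ASO replicate 1. The log2 fold change was -0.15 (standard error 0.30), and leaving out replicate 1 of the MMAB ASO group gave 0.17, or of the CON ASO group 0.12. The SD of its log2 values within groups, 0.57, was at percentile 98.2 among 4399 genes of similar level. Of other TEAD genes and their VGLL cofactors, 5 of 7 were measured and only *Tead3* and *Vgll4* passed the filter. In limma 0 of these 2 reached an adjusted p of 0.05 and 0 an unadjusted p of 0.05, with log2 fold changes of -0.22 for *Tead3* and 0.06 for *Vgll4*. *Tead2* and *Tead4* were at most 0.421 and 0.180 CPM in any liver.

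*Lats2*, the kinase that restrains YAP and TAZ and is itself one of their targets, was slightly higher in every MMAB ASO liver. Its level was 11.9, 12.7 and 11.7 CPM in MMAB ASO livers, against 9.42, 9.63 and 10.2 CPM in CON ASO livers. The means were 12.1 ± 0.534 CPM in MMAB ASO livers and 9.75 ± 0.412 CPM in CON ASO livers (SD, n = 3 each), and the log2 fold change was 0.31 (standard error 0.13). The spread was unusually small, with a within-group SD of log2 values of 0.06, at percentile 1.5 among 4336 genes of similar level. Its close relative *Lats1* was at a log2 fold change of -0.09 (adjusted p = 0.782 from limma). Within each liver the ratio of *Lats2* to *Lats1* was 0.443, 0.489 and 0.503 in the MMAB ASO group and 0.319, 0.377 and 0.395 in the CON ASO group, a ratio on which the scaling of libraries has no bearing. In GENCODE M21 *Lats2* spans 57689662 to 57758388 of chromosome 14, but the deposited record starts at 57642077 and also spans *Xpo4*. The readthrough gene *Gm49361* shares 2955 exon bases with it and was not analysed here, so reads of both may be mixed.

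Of the scaffolds, *Ajuba* stood apart between the groups and *Amotl2* did not. *Amotl2*, an angiomotin-like protein of cell junctions that binds YAP and keeps it in the cytoplasm, was at 6.63, 12.4 and 12.1 CPM in MMAB ASO livers and at 11.0, 8.91 and 7.51 CPM in CON ASO livers. MMAB ASO replicate 1 was the lowest of all, followed by CON ASO replicate 4, the same pair of livers that was lowest for *Tead1*. The log2 fold change of *Amotl2*, 0.14 (standard error 0.23), was 0.44 without MMAB ASO replicate 1 and -0.01 without MMAB ASO replicate 2. *Ajuba* encodes a LIM protein of adherens junctions that binds LATS kinases and limits their action on YAP. Its level was 1.63, 2.05 and 1.54 CPM in MMAB ASO livers, against 3.43, 3.58 and 2.35 CPM in CON ASO livers. Every MMAB ASO liver lay below every CON ASO liver, and the means were 1.74 ± 0.275 CPM in MMAB ASO livers and 3.12 ± 0.669 CPM in CON ASO livers (SD, n = 3 each). The log2 fold change was -0.83 (standard error 0.23), from an estimated 69 to 198 reads per library. *Limd1*, a LIM protein of the same family, had a log2 fold change of 0.08 (adjusted p = 0.822 from limma). The ratio of *Ajuba* to *Limd1* in the same liver was 0.0521, 0.0686 and 0.0598 in the MMAB ASO group and 0.118, 0.130 and 0.0925 in the CON ASO group.

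Both selected CCN family genes, the classic pair of YAP and TAZ targets, stood on opposite sides. *Ctgf* (also *Ccn2*), which encodes connective tissue growth factor, a secreted protein of the matrix, was at 6.92, 11.8 and 5.36 CPM in MMAB ASO livers, against 2.28, 4.34 and 2.44 CPM in CON ASO livers. Each MMAB ASO liver lay above each CON ASO liver, with means of 8.04 ± 3.37 CPM in MMAB ASO livers and 3.02 ± 1.15 CPM in CON ASO livers (SD, n = 3 each). The log2 fold change was 1.40 (standard error 0.30), the largest in size of the selected genes, and it was 1.08 without MMAB ASO replicate 2. *Ctgf* lies on chromosome 10 from 24595442 to 24598683 on the plus strand. The gene *Gm15270* on the opposite strand shares 665 exon bases with it and was at no more than 0.111 CPM in any liver. *Cyr61* (also *Ccn1*), which encodes the related matricellular protein CCN1, was at 2.84, 4.90 and 2.46 CPM in MMAB ASO livers, against 4.78, 5.64 and 5.59 CPM in CON ASO livers. MMAB ASO replicate 2 lay just above CON ASO replicate 1, so the groups overlapped. The *Cyr61* means were 3.40 ± 1.31 CPM in MMAB ASO livers and 5.34 ± 0.482 CPM in CON ASO livers (SD, n = 3 each), and the log2 fold change was -0.71 (standard error 0.24).

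Set against each other in the same liver, both genes parted more clearly than either did alone. A wider gap between the group means follows from dividing a gene that stood higher by a gene that stood lower. The pair was chosen with these values known, so the ratio is a description and carries no weight as evidence. The ratio of *Ctgf* to *Cyr61* was 2.43, 2.42 and 2.18 in MMAB ASO livers and 0.476, 0.770 and 0.436 in CON ASO livers. Its means were 2.34 ± 0.142 in MMAB ASO livers and 0.561 ± 0.182 in CON ASO livers (SD, n = 3 each). *Ctgf* exceeded *Cyr61* in each MMAB ASO liver and was below it in each CON ASO liver in CPM, which is not corrected for length. The 3 other CCN genes in the table, *Nov*, *Wisp1* and *Wisp2*, were below 1 CPM in every liver.

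**Figure D3:**
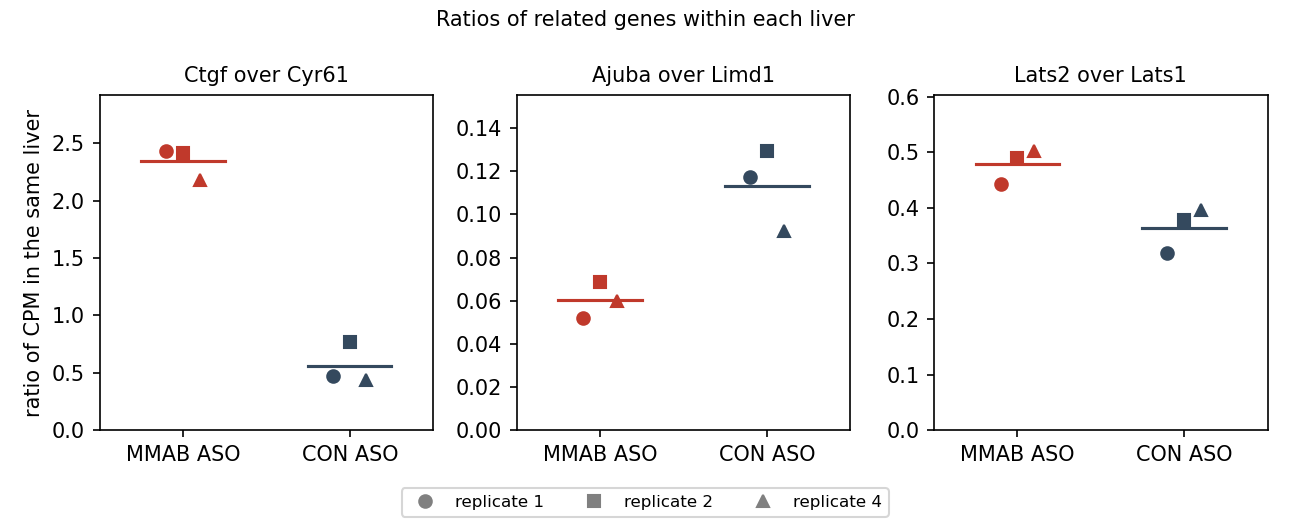
Ratio of CPM between related genes within each liver, for *Ctgf* over *Cyr61*, *Ajuba* over *Limd1* and *Lats2* over *Lats1*, with MMAB ASO livers on the left and CON ASO livers on the right and group means as lines (n = 3). The *Ctgf* to *Cyr61* ratio is 2.18 to 2.43 in MMAB ASO livers and 0.436 to 0.770 in CON ASO livers, and the groups are apart in all 3 panels. Other ratios, not shown, overlapped between the groups. These were *Wwtr1* to *Yap1*, *Axl* to *Mertk* (0.460 to 0.517 in MMAB ASO, 0.349 to 0.603 in CON ASO livers) and *Tead1* to *Amotl2* (0.830 to 0.990 and 0.865 to 1.313).

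*Ankrd1*, a target that encodes an ankyrin repeat protein best known in muscle, was barely measured. It was at 0.122, 0.238 and 0.134 CPM in MMAB ASO livers and at 0.176, 0.235 and 0.0589 CPM in CON ASO livers, or an estimated 3 to 13 reads, and a difference was not detectable at this depth. *Axl*, a target that encodes a receptor tyrosine kinase, was at 5.89, 4.62 and 4.57 CPM in MMAB ASO livers, against 5.14, 2.40 and 2.25 CPM in CON ASO livers. CON ASO replicate 1 was the exception in its group and lay above a pair of MMAB ASO livers. The log2 fold change of *Axl* was 0.72 (standard error 0.28), and 1.10 without CON ASO replicate 1. AXL belongs with TYRO3 and MERTK to the TAM receptors, which take up the ligands GAS6 and PROS1. *Mertk* was at 11.5, 8.94 and 9.93 CPM in MMAB ASO livers, against 8.52, 5.72 and 6.44 CPM in CON ASO livers, with a log2 fold change of 0.57 (adjusted p = 0.104 from limma). *Pros1* was at 70.6, 53.0 and 51.4 CPM in MMAB ASO livers, against 89.6, 76.6 and 71.7 CPM in CON ASO livers, with a log2 fold change of -0.45 (adjusted p = 0.127 from limma). *Gas6* had a log2 fold change of -0.07, and *Tyro3* was at most 0.286 CPM. Of the 3 tested genes of this list 0 reached an adjusted p of 0.05 in limma, beside 4.09% of all tested genes. *Mertk* and *Pros1*, 2 of the 3, had an unadjusted p under 0.05, beside 17.8% of all tested genes.

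Read as a group, the selected genes had no common direction. Of the 9 tested, 4 had a positive log2 fold change, and their median was -0.15, beside 0.03 over all tested genes. As a description of the values known when the genes were chosen, *Ctgf* was the single one past an adjusted p of 0.05 in the limma fit to all genes, where 4.09% of all tested genes were. At the thresholds the study used, a fold change of 1.5 or more with an unadjusted p no higher than 0.05, *Ctgf* and *Axl* were higher and *Ajuba* and *Cyr61* lower, where 5.52% of tested genes were higher and 3.55% lower. The livers did not overlap for *Ctgf* and *Lats2*, with the MMAB ASO group above, nor for *Ajuba*, with it below. Over all tested genes 13.8% were above and 8.91% below in this way. The selected genes were chosen with this contrast in view, so these counts carry no weight as evidence. The log2 fold change of *Ctgf* was 1.08, 1.22 and 1.27 without MMAB ASO replicate 2, CON ASO replicate 1 and CON ASO replicate 4, and *Ctgf* then fell short of that adjusted p.

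In the MMAB ASO group most of the selected genes peaked in the same liver, and in the CON ASO group they did not. MMAB ASO replicate 2 was the highest of its group for 9 of the 10 genes, *Axl* being the exception, beside 52.9% of all tested genes. In the CON ASO group, replicate 1 was highest for *Yap1*, *Wwtr1*, *Tead1*, *Amotl2* and *Axl*, replicate 2 for *Ctgf*, *Cyr61*, *Ajuba* and *Ankrd1*, and replicate 4 for *Lats2* alone, while over all tested genes replicate 1 was highest for 62.1%, replicate 2 for 26.4% and replicate 4 for 11.5%.

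Per length, *Ctgf* had the highest mean of the selected genes in MMAB ASO livers, but not the highest value in each liver. Divided by the merged exon length of each gene, its level was 2.81 ± 1.18 CPM per kb in MMAB ASO livers, where it ranked 1, and 1.06 ± 0.401 CPM per kb in CON ASO livers, where it ranked 6 (SD, n = 3 each). *Yap1* followed it at 2.70 ± 0.414 CPM per kb in MMAB ASO livers and led with 3.17 ± 0.311 CPM per kb in CON ASO livers. *Ctgf* and *Yap1* overlapped in MMAB ASO livers. In MMAB ASO replicate 4 *Ctgf*, at 1.875 CPM per kb, lay below *Yap1* at 2.784 and *Amotl2* at 1.93 CPM per kb. *Cyr61* ranked 5 in MMAB ASO livers at 1.68 ± 0.648 CPM per kb and 2 in CON ASO livers at 2.64 ± 0.238 CPM per kb. The order of mean levels in MMAB ASO livers was *Ctgf*, *Yap1*, *Wwtr1*, *Lats2*, *Cyr61*, *Amotl2*, *Axl*, *Tead1*, *Ajuba* and *Ankrd1*. Among neighbours in this order only *Yap1* and *Wwtr1*, *Axl* and *Tead1*, and *Ajuba* and *Ankrd1* did not overlap over livers. In CON ASO livers it was *Yap1*, *Cyr61*, *Wwtr1*, *Amotl2*, *Lats2*, *Ctgf*, *Ajuba*, *Tead1*, *Axl* and *Ankrd1*, and only *Yap1* and *Cyr61*, and *Axl* and *Ankrd1*, were apart.

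Other genes of the pathway, taken from lists that leave out the selected 10, changed in both directions. Of 70 genes listed, 66 were measured and 51 tested. In limma with Benjamini-Hochberg adjustment over all tested genes, 2 were higher and 2 lower in MMAB ASO livers at an adjusted p under 0.05, beside 4.09% of all tested genes in either direction (216 higher and 257 lower). Their median log2 fold change was 0.03, the same as over all tested genes. An unadjusted p under 0.05 in limma was held by 16 of the 51, a larger share than the 17.8% of all tested genes. These lists were chosen with earlier results known, so the larger share carries no weight as evidence.

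Of 30 other Hippo kinases and adaptors, 27 were tested, and 1 was higher and 0 lower. The higher one was *Amotl1*, an angiomotin-like relative of *Amotl2* that also binds YAP. It was at 7.57, 7.90 and 8.51 CPM in MMAB ASO livers, against 4.69, 4.59 and 4.30 CPM in CON ASO livers, and in limma it was higher by 0.82 on the log2 scale (standard error 0.15) at an adjusted p of 0.0107. Its call held in 14 of 15 alternatives and was lost without MMAB ASO replicate 4, where the adjusted p was 0.0655. *Ptpn14*, a phosphatase that binds YAP and is also a target, had the highest log2 fold change of the rest, 0.85 (adjusted p = 0.0893 from limma). *Taok3*, a kinase that acts above the MST kinases, had the lowest, -0.50 (adjusted p = 0.065 from limma).

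Of 14 junction and polarity genes that act above the kinases, 12 were tested, and 0 were higher and 1 lower. *Cdh1*, which encodes E-cadherin, was at 15.6, 15.1 and 17.6 CPM in MMAB ASO livers, against 32.6, 43.4 and 20.0 CPM in CON ASO livers. In limma its log2 fold change of -0.93 (standard error 0.22) had an adjusted p of 0.0421, and it passed in 5 of 15 alternatives only, with adjusted p-values from 0.0131 to 0.117. The polarity gene *Scrib* (log2 fold change 0.55, adjusted p = 0.108 from limma) and the protocadherin gene *Fat1* (-0.43, adjusted p = 0.173) were the highest and lowest of the rest.

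Of 20 other genes known as YAP and TAZ targets, 18 were measured and 11 tested, and 1 was higher and 1 lower. *Ccdc80*, which encodes a matrix-associated protein, was at 3.72, 3.28 and 2.93 CPM in MMAB ASO livers, against 1.76, 1.63 and 1.56 CPM in CON ASO livers (log2 fold change 1.00, standard error 0.20, adjusted p = 0.0178 from limma). *Nt5e*, which encodes the surface enzyme CD73 that makes adenosine from AMP, was at 1.56, 2.36 and 1.42 CPM in MMAB ASO livers, against 3.93, 4.09 and 3.74 CPM in CON ASO livers (log2 fold change -1.17, standard error 0.22, adjusted p = 0.0139 from limma). Without MMAB ASO replicate 4 or CON ASO replicate 4 neither call held, and that of *Ccdc80* was also lost without MMAB ASO replicate 1. *Arhgef17* (log2 fold change 1.09, adjusted p = 0.0613 from limma) and the tissue factor gene *F3* (-0.86, adjusted p = 0.122) were the highest and lowest of the rest. The median log2 fold change of the 11 targets was 0.22, and at the study's thresholds 5 were higher and 2 lower, beside 5.52% higher and 3.55% lower over all tested genes.

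**Figure D4:**
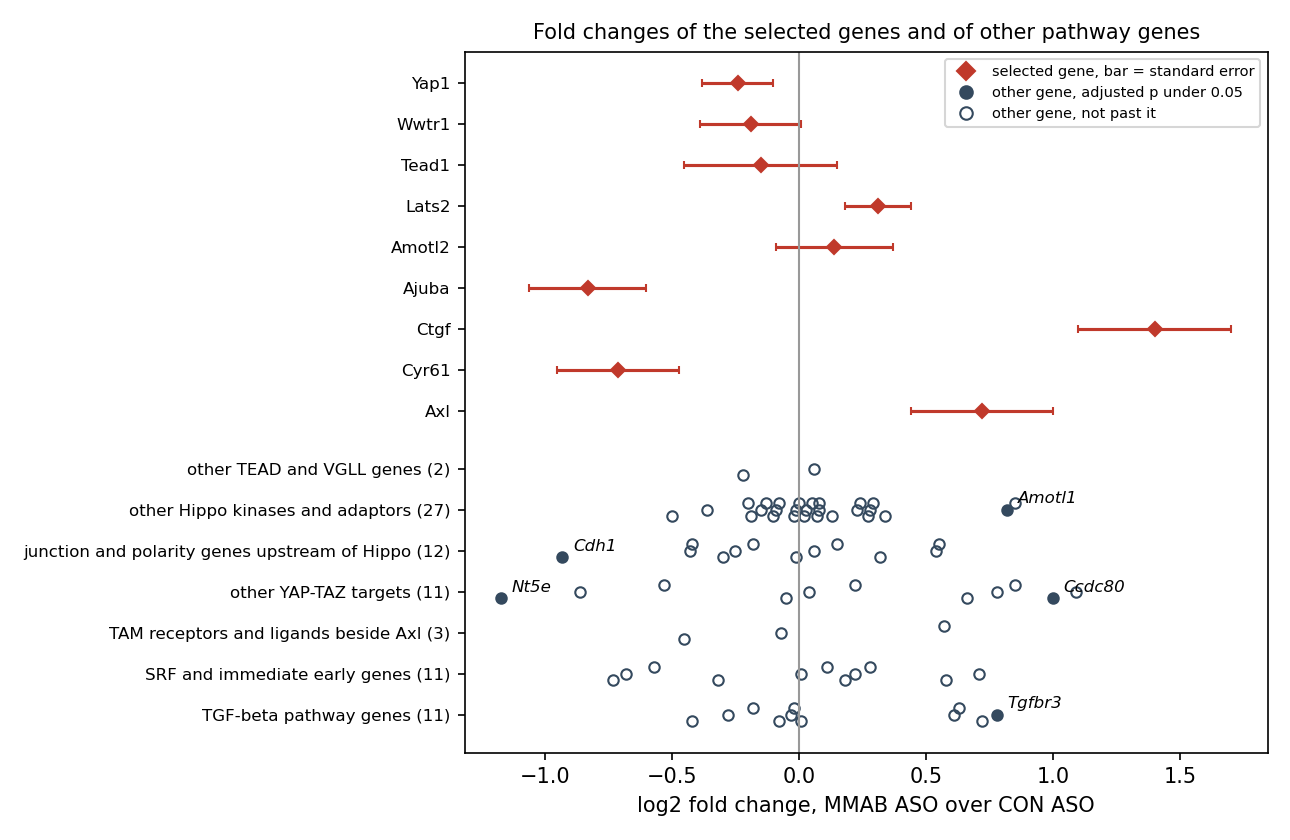
Log2 fold change of MMAB ASO over CON ASO livers for the 9 tested genes of the selection (red diamonds, bars are standard errors) and for genes of 7 other lists (circles, filled where the adjusted p from limma is under 0.05, with the number tested in brackets). *Ctgf* lies farthest to the right at 1.40 and *Nt5e* farthest to the left at -1.17, and each of the larger lists has genes on both sides of 0.

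Markers of endothelial and stellate cells also stood higher in MMAB ASO livers, and in bulk tissue more cells of a type and more RNA per cell cannot be told apart. The 10 endothelial markers summed to 105.1, 104.0 and 88.4 CPM in MMAB ASO livers and to 69.8, 53.2 and 44.1 CPM in CON ASO livers, and 5 of 10 were higher at an adjusted p under 0.05 in limma. Of these 5, *Clec4g* passed in each of 15 alternatives, and the others in 8 (*Stab2*) to 14 (*Kdr* and *Ptprb*) of 14 or 15. The 10 stellate cell markers summed to 119.7, 134.9 and 139.2 CPM in MMAB ASO livers and to 97.9, 83.2 and 71.9 CPM in CON ASO livers, with 6 of 9 tested higher. Of these 6, *Pdgfrb* passed in each of its 14 alternatives, and the other 5 in 5 (*Reln*) to 9 (*Hgf*) of 14 or 15. *Dcn* alone gave a large part of the stellate cell sum, 60.8, 70.1 and 68.4 CPM in MMAB ASO livers and 52.2, 45.3 and 37.9 CPM in CON ASO livers. The 10 Kupffer cell markers summed to 94.7, 55.8 and 71.6 CPM in MMAB ASO livers and to 91.5, 25.8 and 24.6 CPM in CON ASO livers, with 2 of 9 tested higher. These were *Clec4f*, which passed in 8 of 15 alternatives, and *Vsig4*, in 5 of 14, both lost with no filter, with no trend in the variance prior and under median-ratio scaling or quantile normalization. *Marco*, of the same list, was lower at the study's thresholds (log2 fold change -2.96), with CON ASO replicate 1 far above the rest. Of 9 hepatocyte markers measured, 0 passed in limma (0 at an unadjusted p under 0.05). Their median log2 fold change was -0.20, with 1 of 9 positive, where those of the tested endothelial and stellate cell markers were 0.79 and 0.68. They summed to 46510 to 62110 CPM in MMAB ASO livers and to 54890 to 64980 CPM in CON ASO livers. *Alb* gave most of this sum, 28250 to 42650 CPM in MMAB ASO livers and 35440 to 44290 CPM in CON ASO livers. Cholangiocyte markers summed to 31.0 to 42.2 CPM in MMAB ASO livers and to 22.5 to 34.7 CPM in CON ASO livers, with *Spp1* the 1 higher among 3 tested. Mesothelial markers summed to 4.05 to 6.16 CPM in MMAB ASO livers and to 3.14 to 4.23 CPM in CON ASO livers, and smooth muscle markers to 2.11 to 3.52 CPM in MMAB ASO livers and to 0.958 to 1.92 CPM in CON ASO livers, with 0 passing among the 3 mesothelial markers tested (1 at an unadjusted p under 0.05), no smooth muscle marker tested and *Actg2* at 0 in 1 CON ASO liver.

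*Ctgf* and *Lats2*, which were apart between the groups in CPM, were also taken as a percentage of the endothelial and stellate cell sums. *Ctgf* was 6.58, 11.4 and 6.07% of the endothelial sum in MMAB ASO livers and 3.26, 8.16 and 5.53% in CON ASO livers. Of the stellate cell sum it was 5.78, 8.77 and 3.85% in MMAB ASO livers and 2.32, 5.21 and 3.39% in CON ASO livers, and the groups overlapped in both. *Lats2* was 11.3, 12.2 and 13.2% of the endothelial sum in MMAB ASO livers, below the 13.5, 18.1 and 23.2% in CON ASO livers. Of the stellate cell sum *Lats2* was 9.93, 9.42 and 8.41% in MMAB ASO livers and 9.62, 11.6 and 14.2% in CON ASO livers, with overlap. The pair of livers highest in *Axl*, MMAB ASO replicate 1 and CON ASO replicate 1, was also the pair highest in the Kupffer cell sum. *Axl*, which overlapped in CPM, was 6.22, 8.29 and 6.38% of that sum in MMAB ASO livers and 5.61, 9.30 and 9.14% in CON ASO livers. Among the other pathway genes, *Amotl1* was 6.32, 5.86 and 6.12% of the stellate cell sum in MMAB ASO livers and 4.79, 5.51 and 5.98% in CON ASO livers, and *Ccdc80* was 3.11, 2.43 and 2.11% in MMAB ASO livers and 1.80, 1.96 and 2.17% in CON ASO livers, with overlap in both. *Ajuba* and *Cyr61*, lower on average in MMAB ASO livers, were not taken as a percentage of these sums. The part these cells play in the levels of *Ctgf*, *Lats2*, *Axl*, *Amotl1*, *Ccdc80*, *Ajuba* and *Cyr61* was not tested.

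**Figure D5:**
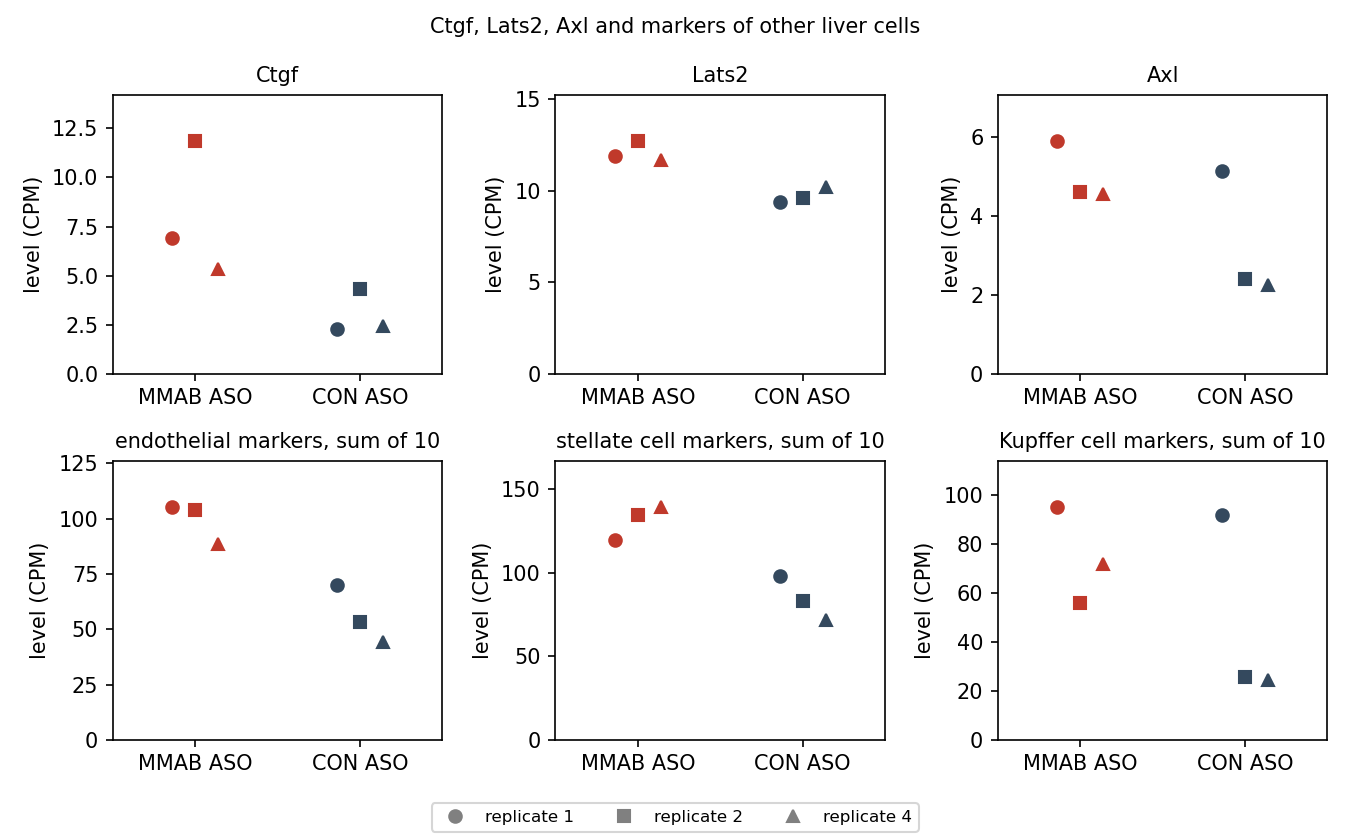
Levels of *Ctgf*, *Lats2* and *Axl* in CPM (upper row) and summed CPM of 10 endothelial, 10 stellate cell and 10 Kupffer cell markers (lower row) in each liver, with MMAB ASO livers on the left and CON ASO livers on the right. The endothelial and stellate cell sums are apart between the groups, and CON ASO replicate 1 is high in both *Axl* (5.14 CPM) and the Kupffer cell sum (91.5 CPM).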

How the data were processed

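Liver RNA of 3 MMAB ASO and 3 CON ASO mice was depleted of ribosomal RNA by the authors, aligned with STAR in Partek to the mouse genome and quantified by the E/M method of Partek. In the deposited table each value is the log2 of CPM, scaled by the authors to each library total, after 0.0001 was added. Libraries and columns were matched by name. Read totals were estimated from steps between low values, of which 58.5% to 59.9% were whole within 0.01, so no count test was run.

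The deposited log2 values of the 11565 genes that averaged 1 CPM or more were fitted in R 4.3.3 by limma 3.58.1, using a variance trend, no covariates and Benjamini-Hochberg adjustment. The selected genes and all lists were chosen with earlier results of these data known. Genes named from each list are those past an adjusted p of 0.05 (at most the 5 smallest) plus the highest and lowest log2 fold change of the rest. GENCODE M21 on GRCm38 gave exon lengths and coordinates, and RefSeq promoter windows were searched for exact letters. P-values and standard errors rest on the spread between 3 livers per group, drawn by limma toward a variance trend over all tested genes. The printed standard error can therefore differ from what a gene's own SD implies, as for *Lats2* (SD 0.06, standard error 0.13). The alternatives were no filter or a mean of at least 5 CPM, a pseudocount of 0.1 or 1, 3 other scalings, no trend, the replicate number as a block, each library left out and a longer TEAD motif. Python 3.11.15, pandas 2.3.3 and matplotlib 3.10.9 were used.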

Additional observations from a re-analysis of the deposited data

How the results depend on the processing

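Over the alternatives the log2 fold changes of *Ctgf*, *Axl*, *Ajuba* and *Cyr61*, the selected genes at the study's thresholds, kept their sign. Those of *Tead1*, *Wwtr1* and *Amotl2* changed sign when certain libraries were left out. The 473 genes past an adjusted p of 0.05 from limma became 255 with no filter, 268 with a mean of at least 5 CPM and 157 to 536 when 1 library was left out. The 4 other pathway genes past it became 2 with a mean of at least 5 CPM, where *Ccdc80* and *Nt5e* were below the filter and not tested. They became 0 to 5 when 1 library was left out, with 0 without MMAB ASO replicate 4 and 2 without CON ASO replicate 4. Of the selected genes, the 1 past it (*Ctgf*) became 0 with no filter and 0 with no trend in the variance prior, and the count (0 without CON ASO replicate 4) was 0 to 1 when 1 library was left out. A count of 1 did not always mean *Ctgf*: it was *Ajuba* under median-ratio scaling and quantile normalization, *Cyr61* without MMAB ASO replicate 2 and *Axl* without CON ASO replicate 1. The 4 selected genes at the study's thresholds became 1 with a pseudocount of 1 and 1 with a mean of at least 5 CPM, *Ctgf* in both. Under the 5 CPM filter *Ajuba*, *Cyr61* and *Axl* were not tested, so they did not fail the thresholds there. The count was 3 to 4 when 1 library was left out. *Cyr61* left them without MMAB ASO replicate 4 (log2 fold change -0.51), and *Axl* without MMAB ASO replicate 1 (0.60), CON ASO replicate 2 (0.55) or CON ASO replicate 4 (0.51). The 8 genes with TEAD letters became 5 with the 7-letter motif. Of 132 log2 fold changes of the selected genes under alternatives, 131 moved by less than the spread between replicates, and *Lats2* moved to 0.40 under protein-coding sum scaling. This count says little about stability. Changes of filter, trend or block cannot alter a fold change here, and the spread is each gene's own within-group SD. For *Tead1*, with an SD of 0.57, a move from -0.15 to 0.17 stayed within it.

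Of the called genes 45.7% were higher as deposited, 34.1% under median-ratio scaling, 39.4% under quantile normalization and 65.7% under protein-coding sum scaling, which set the median log2 fold change of all tested genes at 0.12 in place of 0.03. Same-numbered livers did not deviate together (correlations of -0.02, 0.05 and -0.01), and with the replicate block 430 genes passed, 4 of the other pathway genes, 1 selected gene and 4 at the study's thresholds. With the block the stellate cell markers *Lrat*, *Reln*, *Dcn*, *Rgs5* and *Hgf* did not pass. *Ankrd1* is limited by its 3 to 13 estimated reads.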

Other observations

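Serum response factor and TGF-beta signalling act on some of the same genes as YAP and TAZ, *Ctgf* and *Cyr61* among them. Of 18 SRF and immediate early genes 11 were tested, and limma put 0 higher and 0 lower in the MMAB ASO group at an adjusted p under 0.05. An unadjusted p under 0.05 was held by 3 of the 11, beside 17.8% of all tested genes, and the median log2 fold change was 0.11. The actin crosslinker gene *Flna* (0.71, adjusted p = 0.135) and the early growth response gene *Egr1* (-0.73, adjusted p = 0.659) were at the ends of this list. *Egr1* was at 6.80, 3.71 and 2.38 CPM in MMAB ASO livers and at 1.39, 15.4 and 12.7 CPM in CON ASO livers, so CON ASO replicate 1 was the lowest of all and the other CON ASO livers the highest.

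Of 14 TGF-beta pathway genes 11 were tested, and 1 was higher and 0 lower, beside 4.09% of all tested genes in either direction. *Tgfbr3*, which encodes the coreceptor betaglycan, was at 6.94, 8.11 and 7.71 CPM in MMAB ASO livers, against 5.24, 4.21 and 3.87 CPM in CON ASO livers (log2 fold change 0.78, standard error 0.17, adjusted p = 0.0244 in limma). The gene passed in 11 of 15 alternatives, not without MMAB ASO replicate 2 or 4, CON ASO replicate 4 or a filter, where the adjusted p reached 0.0995. *Tgfb1* (log2 fold change 0.72, adjusted p = 0.171) and the inhibitor gene *Smad7* (-0.42, adjusted p = 0.478) were the highest and lowest of the rest.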
